A study of Mus musculus with 3 samples.

Results

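The genes of translation initiation and elongation factors were taken as all genes whose deposited symbol starts with Eif or Eef and a digit in either of the 2 deposited tables. Symbols of the eIF2α kinases (Eif2ak), of the Argonaute genes under their older name (Eif2c), of pseudogenes marked -ps and Eif2s3y were left out. The rule gave 55 of the 15058 genes in the joined tables. All 55 were listed in both tables and had counts in all 3 libraries, and all 55 passed the filter on low counts, which asks for 1 CPM (counts scaled to a common library size) in at least 1 of the libraries compared.

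RNA came from erythroblasts, the nucleated precursors of red cells, in mouse embryo blood at E10.5, and the design text describes pools of 5 embryos. The control library held CD71+ Ter119-high cells of embryos labelled Drosha fl/fl or Drosha fl/+, with Drosha given as WT. The Drosha-null library held CD71+ Ter119-high cells of Drosha fl/fl;cdh5-cre+ conditional knockout (cKO) embryos, with Drosha given as null. The Ter119-low library held CD71+ Ter119-low cells of embryos of the same cKO genotype, with Drosha given as abundant as in WT. Cdh5 is an endothelial gene, so the Cre should act in endothelium and in cells that arise from it. Whether the erythroblasts sampled here arose from it was not tested. Surface gate and labelled Drosha state differ together between the cKO libraries and cannot be told apart. Each group had 1 library, so no difference below has a replicate check and no test across conditions could be made. Intervals are 95% Clopper-Pearson counting intervals unless another kind is named, and they cover counting error only: no molecular identifiers are described, so reads cannot be taken as independent molecules. Values in threes are given in the order control, Drosha-null, Ter119-low.

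The libraries held 9497425, 9325814 and 9418474 counts. Drosha itself had 324, 122 and 244 counts, so its lowest value was in the library labelled null, where transcripts remained. After the TMM scaling described below, its log2 ratio to the control was −1.81 (−2.13 to −1.51) in Drosha-null (−1.38 by total counts). In Ter119-low it was −0.49 (−0.74 to −0.25, and −0.40 by total counts), so its RNA lay below the control there despite the label. Ribosomal RNA took 27.9% to 28.7% of the counts, and globin genes took 25%, 17.1% and 23.1%. All 10 primitive erythroid markers were detected in every library. In the Drosha-null library their log2 ratios to the control had a median of −0.84 (−0.40 by total counts), and Hbb-bh1, Hbb-y and Slc4a1 were among those lower by the 2-fold rule given below. Of these 3, Hbb-bh1 alone passes it by total counts. Markers of other cells were sparse, and each list below had its highest count sum in the Drosha-null library. For macrophage and leukocyte markers that sum was close to the control. Of 9 muscle markers 8 were listed, and they summed to 85, 338 and 58 counts. Most of the Drosha-null sum came from Ttn (37, 181 and 42) and Actc1 (19, 86 and 9), with Smyd1 at 0, 27 and 0. Tnnt2 (16, 20 and 0), Myog (11, 16 and 2) and Myh6 (2, 0 and 0) were not clearly higher in Drosha-null than in control cells. Nppa and Myh7 were at 0 in the control. The 6 endothelial markers summed to 58, 183 and 56 counts, the 5 listed of 6 neuronal to 87, 118 and 77, the 5 of 6 megakaryocyte to 101, 176 and 124, and the 4 of 6 macrophage and leukocyte markers to 22, 23 and 6. In the megakaryocyte list Gp1ba (3, 39 and 5) and Itga2b (79, 126 and 96) were highest in the Drosha-null library. Pf4 (4, 0 and 4), Gp9 (14, 11 and 19) and Ppbp (1, 0 and 0) were lower there than in the control. The part of these shifts in the results below was not tested. In bulk RNA, fewer cells of a type and less RNA per cell cannot be told apart.

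Translation starts when eIF2 carries the initiator tRNA to the small ribosomal subunit, with eIF1, eIF1A, eIF3 and eIF5 helping to find the start codon, while the eIF4 factors recruit the capped messenger RNA. eIF4E binds the cap and is held off by the 4E-binding proteins, eIF2B recharges eIF2 with GTP, and eIF5B joins the subunits. In elongation eEF1A delivers aminoacyl-tRNA, the eEF1B subunits recharge it, eEF2 moves the ribosome by a codon, and eIF5A helps it through difficult peptide bonds. Erythroblasts depend on this machinery for the very high synthesis of globin, which is matched to heme supply through phosphorylation of eIF2α.

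Eef1a1, Eif5a, Eef1g and Eef2 were the most abundant of these transcripts in every library. Levels between genes are compared here as FPKM, the authors' values per gene length and library size. Eef1a1, the aminoacyl-tRNA carrier, had FPKM values of 2139, 2257 and 2092. It alone made up 28.4%, 30.4% and 27.3% of the summed FPKM of the 55 genes. Eif5a followed in the control, with FPKM values of 714, 422 and 686. Eef1g, a subunit of the exchange factor eEF1B, had 539, 588 and 597 FPKM, and the translocase Eef2 had 447, 424 and 477. Eef1a1, Eef1g and Eef2 kept this order in every library, whereas Eif5a lay above Eef1g in the control and Ter119-low cells and level with Eef2 in the Drosha-null cells.

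Among initiation factors the helicase Eif4a1 was highest, with FPKM values of 227, 267 and 228. The eIF3 subunit genes Eif3e (212, 206 and 199) and Eif3g (178, 192 and 191) and the scaffold gene Eif4g2 (168, 195 and 180) were among the next. The start-codon factor Eif1 had 149, 91.6 and 128 FPKM and the GTPase activator Eif5 had 126, 107 and 128. Among the scarcest were Eif2b4, a subunit of eIF2B, at 7.77, 8.96 and 10.2, the eEF2 kinase gene Eef2k at 3.66, 2.50 and 3.73, and Eif5a2 at 2.88, 6.39 and 3.44. The cap-binding paralog Eif4e3 was the least abundant, at 0.56, 0.53 and 0.39 FPKM from 13, 12 and 9 counts. Most lines in the plot of levels by library run nearly flat, and those of Eif5a and Eif5a2 bend in opposite directions.

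**Figure D1:**
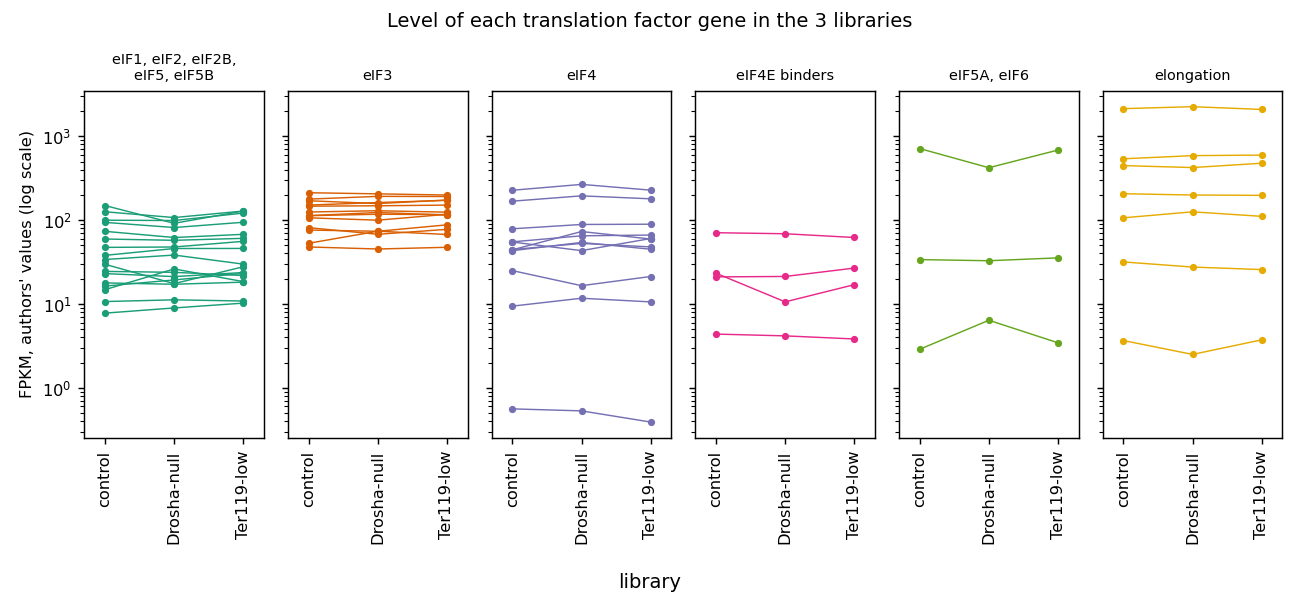
FPKM (authors' values, log scale) of the 55 translation factor genes by library (1 per group), with 1 line per gene and 1 panel per role. Eef1a1 tops the elongation panel at 2139, 2257 and 2092, and in the eIF5A panel Eif5a drops from 714 to 422 in the Drosha-null library while Eif5a2 goes from 2.88 to 6.39.

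Several translation factor messenger RNAs are known to start with an oligopyrimidine tract (TOP), a C followed by further C and T bases, through which mTOR and Larp1 control their use by ribosomes. Sequences around annotated starts are shown here because this tract is the best-known sequence feature that translation factor messenger RNAs share. Members with such a run come first, then a pair without one. The RefSeq start-site table for GRCm38.p6 held 43 of the 55 genes. Runs of at least 8 pyrimidines beginning with C were searched on the transcribed strand within 50 bases either side of each annotated start. In the genes Eef1a1 (chr9:78481710-78481739, minus strand), Eif3f (chr7:108934404-108934433, plus strand) and Eif2s3x (chrX:94212632-94212661, minus strand) the longest such run, in capitals, read as follows.
Eef1a1: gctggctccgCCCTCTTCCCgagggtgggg
Eif3f: ttctaggCTCTCTCTCTTTCTCggcaagat
Eif2s3x: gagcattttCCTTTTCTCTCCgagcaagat
In Eif3f the run of 15 began 4 bases before the annotated start and in Eif2s3x the run of 12 began 1 base before it. In Eef1a1 the run of 10 began 5 bases before the annotated start, which there falls on a T and not a C. The windows of Eif1 (chr11:100319934-100319963, plus strand) and Eif1b (chr9:120492591-120492620, plus strand) held no run. They are printed from 15 bases before the start, with the transcribed bases in capitals.
Eif1: gcgctggcgtcacagGGGCGGCTATATAAG
Eif1b: gcggcgcgcggggctAAATACGCGGCGCCG
A run was found for 17 of the 43 genes (39.5%), against 2742 of 8704 genes (31.5%) among those compared between Drosha-null and control that have a window. Of all 32851 windows 28.8% held one. On the literature list of TOP messenger RNAs used below, 5 genes had a window and 2 of them (Eef1a1 and Eif3f) held a run. Some runs lay away from the start. That of Eif3c began 43 bases before it and that of Eif5a 32 bases after it. A run found by this search is thus not the same as a TOP tract. A match describes letters near an annotated start and does not show where transcription began in these cells.

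The comparison of Drosha-null with control cells, sorted by the same gate, asks how the transcriptome differs where Drosha is lost. Nearly all translation factor genes had a ratio of Drosha-null to control below the median ratio of all genes, most of them by a modest amount. Differences are given as log2 ratios after TMM scaling, which trims extreme genes before setting library size. The median of the 55 genes was −0.45 (quartiles −0.54 and −0.25), beside −0.020 for all 10769 genes compared (quartiles −0.47 and 0.52). Scaling by total counts instead adds 0.43 to every ratio of this comparison and moves the all-gene median to 0.43, so 23 of the 55 signs then turn and the median of the factors becomes −0.014. Relative to the all-gene median the factors lay at −0.43 by TMM and −0.45 by total counts, and 51 of 55 were below it under both, where 50% of all genes are. Among genes with a mean of at least 20 CPM, 51 factors had a median of −0.42 and all 4439 genes −0.11.

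In counts, the 55 genes summed to 149619, 148508 and 153995. These sums are 1.58% (interval 1.57% to 1.58%), 1.59% (1.58% to 1.60%) and 1.64% (1.63% to 1.64%) of all counts. Outside ribosomal RNA and globin genes they are 3.40% (3.39% to 3.42%), 2.89% (2.88% to 2.91%) and 3.38% (3.36% to 3.40%). The share of the whole library thus differed little, and the share of the non-globin messenger pool was lowest in the Drosha-null library.

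A gene was called lower or higher when its ratio reached 2 and its interval excluded 1. By this rule 4 factors were lower in the Drosha-null library, against 7.79% of all genes called lower (5.18% of genes at 20 or more CPM), and 0 were higher, against 12.4%. The count of 4 of 55 lies near the background. The interval lay wholly below 0 for 44 of 55 factors and for 30.8% of all genes, and wholly above 0 for 3 factors and 29.1%. These last counts depend on the scaling as above, and abundant genes have narrow intervals.

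**Figure D2:**
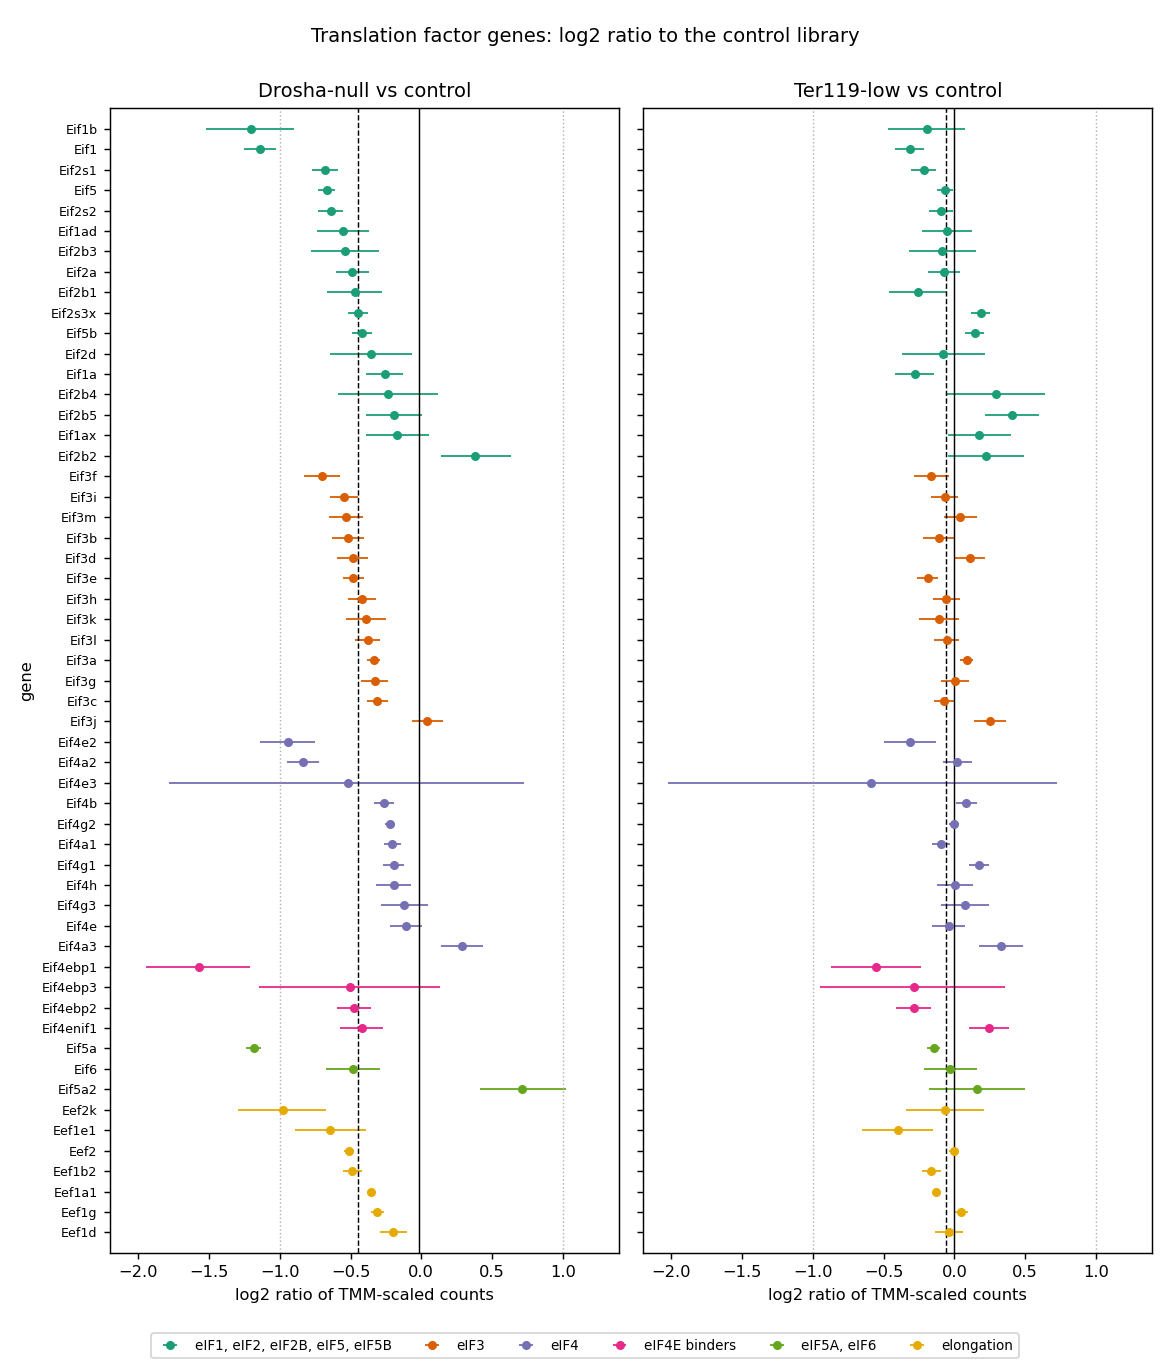
Log2 ratio to the control of TMM-scaled counts for each of the 55 genes in the Drosha-null (left) and Ter119-low (right) library, with 95% counting intervals as bars and colours by role. The solid vertical line is the median of all genes, the dashed line the median of the 55 (−0.45 left, −0.056 right) and the dotted lines the 2-fold rule, which 4 genes pass on the left and 0 on the right.

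Start-codon selection genes included the lowest initiation factors. Eif1, which keeps the scanning ribosome from starting at wrong codons (chromosome 11, 100319885 to 100322096, plus strand, GRCm38), gave 1667, 1002 and 1419 counts. Its paralog Eif1b (chromosome 9, 120492232 to 120495330, plus strand) gave 240, 138 and 222. In each of the pair the Drosha-null library was lowest and the others lay closer together. Eif1 stood at −1.14 (interval −1.26 to −1.03) and Eif1b at −1.20 (−1.52 to −0.90) against the control, and both were called lower. By total counts they stood at −0.71 and −0.77, below 0 but no longer past the rule.

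The eIF2 subunit genes had ratios below the all-gene median ratio. Eif2s1, the phosphorylated α subunit, had 2158, 1786 and 1970 counts (−0.68 for Drosha-null over control). Eif2s2, the β subunit, stood at −0.64 and Eif2s3x, the X-linked γ subunit, at −0.45. The subunits of the exchange factor eIF2B did not share a direction. Eif2b3 was lowest at −0.54 and Eif2b1 stood at −0.47, while Eif2b2 had 212, 367 and 262 counts (0.38, interval 0.14 to 0.63). The intervals of Eif2b4 (−0.24) and Eif2b5 (−0.19) held 0. Over the 17 genes of start-site selection and the initiator complex the median was −0.47 (−0.038 by total counts), with 2 called lower and 0 higher. The subunit-joining GTPase gene Eif5b stood at −0.42, the GTPase activator Eif5 at −0.67 with 4655 and 3883 counts, and the eIF1A genes Eif1a (907, 1005 and 792 counts) and Eif1ax (310, 366 and 371) at −0.26 and −0.17. Of these, Eif5b, Eif1a and Eif1ax lie above 0 by total counts, as do Eif2b4 and Eif2b5.

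The genes of eIF3, a large scaffold on the small subunit, moved within a narrow band. The 13 measured subunits ranged from −0.70 for Eif3f to 0.04 for Eif3j, around a median of −0.42 (0.012 by total counts), with 0 called. Eif3a, the largest subunit, had 7357, 7736 and 8293 counts (−0.33, interval −0.38 to −0.29). Eif3e had 2975, 2827 and 2767 counts (−0.48), and Eif3g 1694, 1789 and 1801 (−0.33). The raw counts of these subunits thus differed little between libraries, and by total counts Eif3a and Eif3g lie above 0 and Eif3e below. Eif3j (1159, 1583 and 1462 counts) carries fractional counts in every library, so its reads may be split with another gene and its value is uncertain.

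Cap-binding and helicase genes spread more widely, with a median of −0.20 over 11 genes (0.23 by total counts) and 0 called. Eif4e, the cap-binding protein, had 1158, 1423 and 1194 counts, a ratio of −0.11 (interval −0.22 to 0.003). Its paralog Eif4e2, whose protein forms a translation repressor at the cap, had 527, 363 and 449 counts and stood at −0.94. Eif4e2 carries fractional counts in every library too and is as uncertain. Eif4a1 had 3955, 4553 and 3929 counts and stood at −0.20, while Eif4a2, the helicase paralog, had 1494, 1112 and 1605 counts and stood at −0.83 (−0.95 to −0.72). The third paralog, Eif4a3, which acts in the exon junction complex rather than in initiation, had 598, 968 and 797 counts and stood at 0.29 (0.14 to 0.44). The scaffold genes Eif4g1 (2827, 3274 and 3379 counts), Eif4g2 (12324, 13996 and 13039) and Eif4g3 (548, 669 and 613) stood at −0.20, −0.22 and −0.12, and all 3 lie above 0 by total counts, as do Eif4e and Eif4a1. Eif4e3, at 12 counts, had an interval of −1.78 to 0.73 and was not measured well enough at this depth to show a difference of 2-fold.

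Among the binders of eIF4E, Eif4ebp1 had the lowest Drosha-null ratio of all 55 genes. It encodes 4E-BP1, the repressor that mTOR inactivates by phosphorylation (chromosome 8, 27260329 to 27276674, plus strand, GRCm38). It had 202, 90 and 146 counts, so that the Drosha-null value was lowest and the Ter119-low value lay between. The ratio was −1.57 (−1.95 to −1.21), and −1.14 by total counts, so it passed the rule under both. The more abundant Eif4ebp2 had 1157, 1102 and 1005 counts (−0.48), Eif4ebp3 had 45, 42 and 39 (−0.51, −1.15 to 0.13), and the eIF4E transporter gene Eif4enif1 stood at −0.42 (0.012 by total counts).

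The eIF5A genes moved apart. Eif5a, the general form, which carries the amino acid hypusine (chromosome 11, 69916714 to 69921958, minus strand, GRCm38), gave 8271, 4822 and 7927 counts. Eif5a2, its paralog of restricted expression (chromosome 3, 28781276 to 28798846, plus strand), gave 135, 294 and 160. The control and Ter119-low libraries were close for both genes, and the Drosha-null library had the lowest Eif5a and the highest Eif5a2. Eif5a stood at −1.19 (−1.24 to −1.13) and was called lower, though not by total counts (−0.75). Eif5a2 stood at 0.71 (0.42 to 1.02) and was the highest of the 55. It did not pass the rule by TMM but did by total counts (1.15). Eif6, which keeps the ribosomal subunits apart, had 459, 436 and 477 counts and stood at −0.48 (−0.048 by total counts).

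Elongation genes all had ratios below the all-gene median ratio, with 0 of 7 called and a median of −0.49 (−0.054 by total counts). Eef1a1 had 35046, 36247 and 33964 counts (−0.36, 0.075 by total counts), and Eef1g had 7680, 8209 and 8423 (−0.31, above 0 by total counts). Eef1b2 and Eef1d, further eEF1B subunit genes, stood at −0.49 and −0.20, the latter above 0 by total counts. Eef2 had 13017, 12099 and 13775 counts (−0.51). Eef2k, whose kinase inactivates eEF2, had 219, 147 and 222 counts and stood at −0.98 (−1.29 to −0.67), just outside the 2-fold rule. Just inside it was Eif1 at −1.14. Eef1e1, a scaffold protein of the tRNA synthetase complex despite its name, stood at −0.64. A tissue-restricted paralog of Eef1a1, Eef1a2, was listed in neither table.

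The 9 members on a list of TOP messenger RNAs known from the literature, among them Eef1a1, Eef2, Eif3e and Eif4b, ranged from −0.70 to −0.20 with a median of −0.42 and 0 called. The 46 other members had a median of −0.46, and all 4 called genes are among them, where 7.79% of all genes were called lower. By total counts the TOP list had a median of 0.012. The 17 members with a pyrimidine run had a median of −0.36 with 1 called lower, and the 26 with a window but no run had −0.49 with 2 called lower. At the share of all genes called lower, these counts are too small to tell the groups of members apart.

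The ratio of 2 genes within a library does not depend on scaling, so the paralogs were also compared in that way, with Wald 95% counting intervals. The ratio of Eif5a2 to Eif5a, in FPKM, was 0.403%, 1.51% and 0.502%. From the counts this ratio was 3.74-fold higher in Drosha-null than in control cells (log2 change 1.90, 1.60 to 2.20), and its interval held no change in Ter119-low against control (0.31, −0.027 to 0.64). The FPKM of Eif4ebp1 was 32.9%, 15.4% and 27.4% of that of Eif4ebp2, a log2 change of −1.10 (−1.47 to −0.72) for Drosha-null over control. Eif4e2 relative to Eif4e changed by −0.84 (−1.06 to −0.61) and Eif4a2 relative to Eif4a1 by −0.63 (−0.76 to −0.50). Eif4a3 relative to Eif4a1 changed by 0.49 in Drosha-null and by 0.42 in Ter119-low cells. By contrast Eif1b relative to Eif1 changed by −0.064 (−0.39 to 0.26) and Eif4g1 relative to Eif4g2 by 0.028 (−0.052 to 0.11), intervals that exclude a 2-fold change. Relative to Eef1a1, Eif5a changed by −0.83 (−0.88 to −0.77). Such ratios still carry any trend with gene length, which is described below. Eif5a2 is longer than Eif5a (4992 and 1295 bases) and Eif4ebp1 shorter than Eif4ebp2 (981 and 1786). Both pairs shifted toward the longer gene. Eif4a2 is longer than Eif4a1 (2855 and 1897 bases), and that pair shifted toward the shorter. The part of length in the changes of these pairs was not tested.

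**Figure D3:**
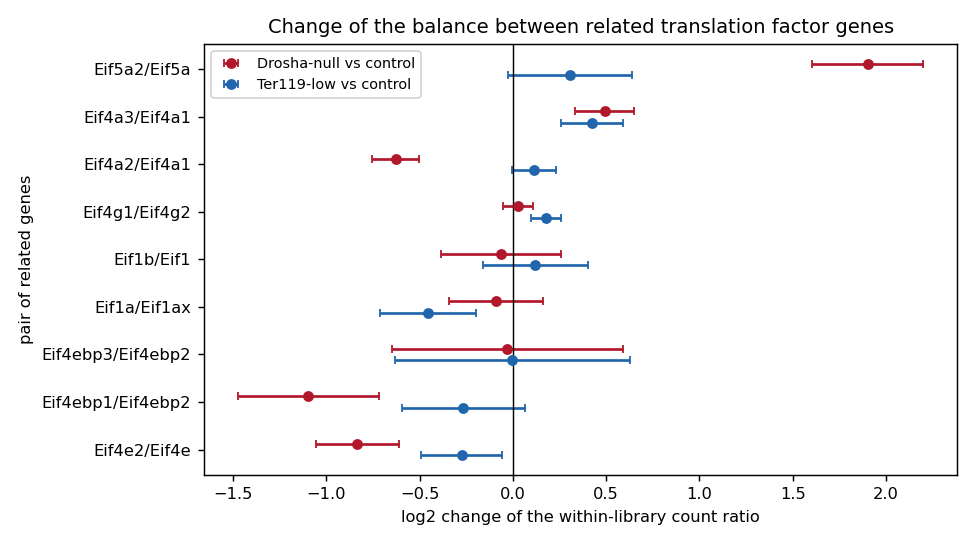
Log2 change of the count ratio between 2 related genes of the same library, in Drosha-null (red) and Ter119-low (blue) against control, with Wald 95% counting intervals. Of the pairs drawn, Eif5a2/Eif5a lies farthest right at 1.90 and Eif4ebp1/Eif4ebp2 farthest left at −1.10 in Drosha-null cells, while Eif1b/Eif1 and Eif4ebp3/Eif4ebp2 have intervals across 0 in both libraries.

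The Ter119-low comparison sets less mature cKO cells, by their surface gate, beside the control, and the translation factors differed little there. The median of the 55 was −0.056, beside 0.00051 for all 10591 genes compared. Total-count scaling adds 0.10 and moves the median of the factors to 0.041. By the 2-fold rule 0 factors were called in either direction, against 2.9% of all genes higher and 2.76% lower (0.0451% lower among those at 20 or more CPM). The factors ranged from −0.59 for the sparse Eif4e3 to 0.41 for Eif2b5, and 35 of 55 were below 0 (18 by total counts), where 49.9% of all genes are. The interval lay below 0 for 17 factors, against 14.2% of all genes, and above 0 for 11, against 13.5%. Eif2b5, the catalytic subunit of eIF2B, had 387 and 544 counts (interval 0.22 to 0.60). Eif4ebp1 had 202 and 146 (−0.55, −0.87 to −0.24). The eIF3 subunits kept within −0.19 and 0.25. Both comparisons use the same control library, so their values are not independent.

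Drosha-null against Ter119-low compares cKO cells of different gates and labelled Drosha states. The median of the 55 factors was −0.37 (−0.028 by total counts), beside −0.019 for all 10795 genes, and 51 of 55 lay below 0 (31 by total counts), where 51.2% of all genes do. The interval lay below 0 for 46 factors, against 29.4%, and above 0 for 1, against 27.4%. Called lower were 3 factors, against 5.94% of all genes (3.4% at 20 or more CPM), and 0 were called higher, against 10.8%. The 3 were Eif5a (−1.04, −1.09 to −0.99), Eif4ebp1 (−1.02, −1.42 to −0.63) and Eif1b (−1.01, −1.33 to −0.70). All 3 lay at the edge of the rule, with Eef2k at −0.92 just outside, and by total counts 0 were called. Eif5a2 was again the highest at 0.55 (0.27 to 0.84), and its ratio to Eif5a was 3.02-fold higher in the Drosha-null library.

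Gene length moved with the difference between Drosha-null and control. Over all 10769 genes Spearman's rho between length and log2 ratio was 0.31, and over the 55 factors, which share the libraries, it was 0.21. The factors are short, with a median of 1938 bases against 2903 for all genes. With genes split by length into 10 classes, the shortest had a median of −0.59, with 23.4% called lower, and the 8 factors of that class had −0.53. Eif1b and Eif4ebp1 belong to it, and Eif1 and Eif5a to the next class, where all genes had a median of −0.28 and 12.4% were called lower. In 8 of the 9 length classes that hold factors, their median was below that of all genes in the class. Set against the median of its own class, 46 of 55 factors were lower, by a median of 0.32 on the log2 scale. The part of length in the single results was not tested.

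**Figure D4:**
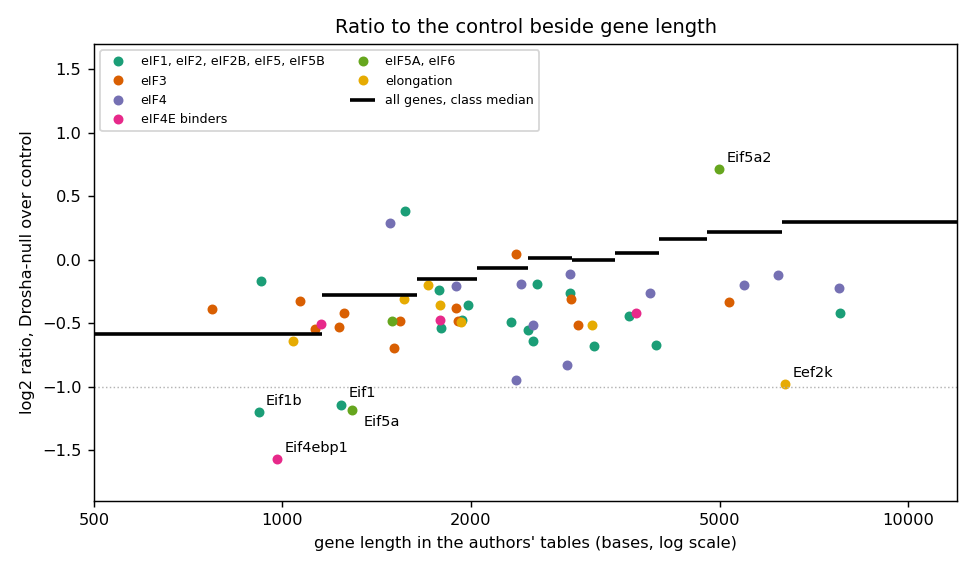
Log2 ratio of Drosha-null over control (TMM-scaled counts) against gene length in bases (log scale) for the 55 genes, coloured by role, with black bars for the median of all genes in each of 10 length classes. The bars run from −0.59 in the shortest to 0.29 in the longest class, and most factors lie below the bar of their class, with Eif5a2 above it.

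Other genes of translation were taken from fixed lists, of which 54 were measured. In Drosha-null against control 3 of 54 were called higher and 3 lower, against the 12.4% and 7.79% of all genes given above, with a median of −0.29 (0.14 by total counts). Pabpc1, the main poly(A)-binding protein and the most abundant gene of these lists, had 25373, 21307 and 26844 counts (−0.66). Its paralog Pabpc4 had 4750, 2586 and 4599 counts and was called lower (−1.28, −1.35 to −1.22), though not by total counts (−0.85). The release factor paralog Gspt2 had 6, 31 and 9 counts and was called higher (1.87, 0.68 to 3.51), while the abundant Gspt1 stood at −0.21 (0.22 by total counts).

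Genes that control the factors included called members in both directions. Atf4, the transcription factor whose translation rises when eIF2α is phosphorylated, had 2357, 1208 and 2467 counts and was called lower (−1.37, −1.47 to −1.27), though not by total counts (−0.94). The eIF2α kinase genes differed from each other. The heme-regulated Eif2ak1 had 1850, 2105 and 2030 counts (−0.22, above 0 by total counts), and Eif2ak2, the kinase activated by double-stranded RNA, had 85, 232 and 94 counts and was called higher (1.04, 0.68 to 1.42). Pdcd4, which inhibits the eIF4A helicase, had 66, 300 and 62 counts and was called higher (1.77, 1.39 to 2.18). Larp1, which binds TOP messenger RNAs, had 8366, 5947 and 8869 counts and stood at −0.90, short of the rule. Dph3, of the pathway that makes diphthamide on eEF2, was called lower (346, 154 and 301 counts, −1.57), and the more abundant Dph5 stood at −0.64. Of the 10 mitochondrial translation factors 0 were called, and Tufm, the most abundant by control FPKM, stood at −0.13 (0.31 by total counts). In Ter119-low against control 0 of the 54 genes were called.

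**Figure D5:**
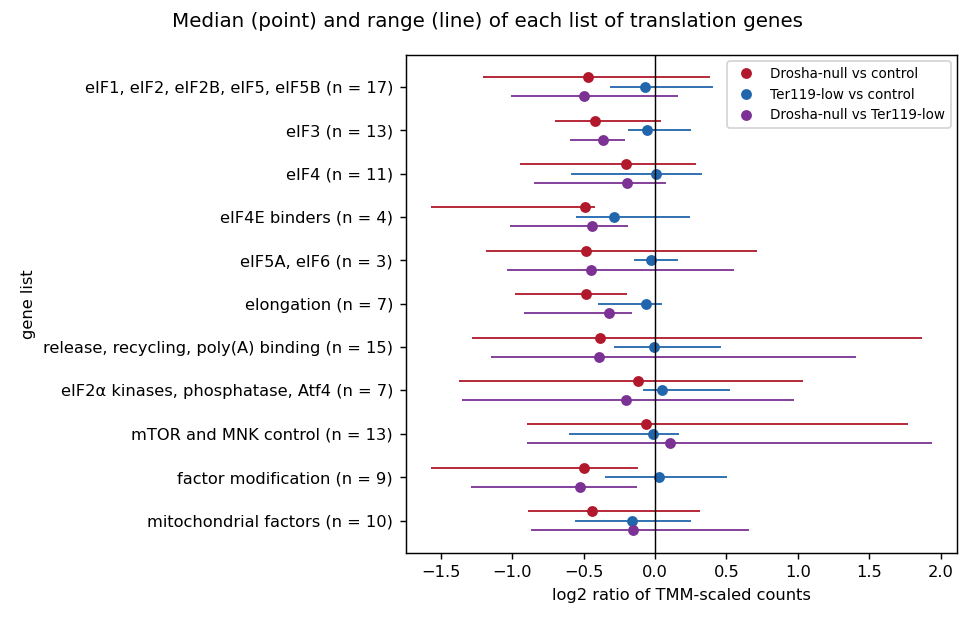
Median (point) and range (line) of the log2 ratio of TMM-scaled counts for each list of translation genes in the 3 comparisons, with the number of genes measured beside each name. The Ter119-low points (blue) lie nearer 0 than the Drosha-null points against control (red) in every list, and the widest red range belongs to release, recycling and poly(A) binding, with Gspt2 at 1.87 and Pabpc4 at −1.28.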

How the data were processed

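There are 2 deposited tables, 1 for each cKO library, with the control repeated in both. Per the file headers, each holds an estimated count per gene from the authors, not normalized and in places fractional. It also holds the authors' FPKM, with 0.001 at 0 counts, and the authors' log2 ratio of the FPKM columns and p-values, which were not used. How the authors aligned and counted, and on which build, is not given in the sources used here. Both (14640 and 14300 genes, control counts differing for 0 of 13882 shared) were joined by gene ID, a gene missing from 1 table was given 0 counts, and counts were rounded to whole numbers. Fractional counts occurred in 4 members (Eef1a1, Eif3j, Eif4e2 and Eif4g2).

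TMM factors (0.885, 1.19 and 0.946 for control, Drosha-null and Ter119-low) came from edgeR 4.0.16 under R 4.3.3. Log2 ratios had 0.5 counts added, with 95% Clopper-Pearson intervals, for genes reaching 1 CPM in at least 1 of the libraries compared, and a ratio of 2 with an interval excluding 1 was called. Depth was 9325814 to 9497425 counts per library. Groups were taken from the labels. No test across conditions exists with 1 library per group. The procedure was tested on simulated counts that had counting error only and, apart from set folds in chosen genes, the same composition in every library. That test does not cover shifts of composition between libraries or variation between replicates. Locations are from GENCODE M21 (GRCm38), start windows from RefSeq (GRCm38.p6). Intervals used SciPy 1.17.1, figures matplotlib 3.10.9, and tables pandas 2.3.3 with NumPy 2.4.6, under Python 3.11.15.

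The members, lists and rules were chosen with earlier results of these data known. Genes named are the 2 most abundant of each role, all called members, the paralog sets, the extremes of eIF2 and eIF2B, those next to the fold rule and, from other lists, called genes and the most abundant. Other genes named were chosen after their values were seen. The alternatives tried were total-count scaling, size factors by relative log expression (RLE, the method of DESeq2), FPKM, other filters and a fold of 1.5.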

Additional observations from a re-analysis of the deposited data

How the results depend on the processing

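Direction and calls depended on the scaling. In Drosha-null against control, total-count scaling left 1 factor called lower (Eif4ebp1), called 1 higher (Eif5a2) and moved the median to −0.014. With FPKM plus a pseudocount of 1 there was 1 lower and a median of −0.012, and with a fold of 1.5 there were 12 lower and 1 higher. Totals without ribosomal RNA and globin genes, an alternative chosen after seeing the data, gave 3 lower (Eif1 was lost, at −0.96) and a median of −0.26. In Ter119-low against control the median was 0.041 by total counts and 0.041 by FPKM. In Drosha-null against Ter119-low, total counts gave 0 lower and a median of −0.028, and FPKM 0 lower and −0.027. Totals without ribosomal RNA and globin genes gave 0 lower and −0.21 in that comparison. There RLE size factors gave 1 lower (Eif5a), and a fold of 1.5 gave 12 lower. These shifts follow from the scaling or fold itself. Filters of 0 or 10 CPM changed no count of calls among the members. No called member changed sign. No paired analysis was possible because each group has 1 library, and for the same reason no library could be left out.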
